A study of Mus musculus with 12 samples.

Results

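The genes described here are 10 parts of the NF-kB system, chosen by symbol with earlier results of these data known. These are the 5 subunits Nfkb1, Nfkb2, Rel, Rela and Relb, and 5 regulators, Nfkbia, Nfkbie, Nfkbiz, Bcl3 and Tnfaip3. They are 10 of 52553 features counted, and all 10 were among the 20135 that passed the filter on low counts. The RNA came from CD115+ cells that magnetic beads had sorted from blood or spleen of male C57BL/6 mice, and it was measured by RNA-seq. Intact animals kept both the spleen and the liver, and resected animals kept the spleen and had lost 70% of the liver mass 24 h before collection. Each tissue and state had 3 libraries, 12 in all, and each library pooled monocytes of 5 mice. The labels give the intact animals no sham operation, so surgery and the loss of liver mass cannot be told apart. In sorted bulk samples a change in the level of a transcript and a change in the mix of sorted cells cannot be told apart either.

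NF-kB is a family of dimeric transcription factors held ready in the cytoplasm and used by myeloid cells to switch on inflammatory genes. Rela, Rel and Relb carry the domain that activates transcription, while Nfkb1 and Nfkb2 encode long precursors that are trimmed to DNA-binding partners. Inhibitors of the IkB family, such as those encoded by Nfkbia and Nfkbie, bind the dimers and are destroyed when a receptor signals. The freed dimers then induce the genes of their own inhibitors, which closes a feedback loop. Nfkbiz and Bcl3 encode nuclear relatives of these inhibitors that modify which genes are transcribed, and Tnfaip3 encodes A20, a ubiquitin-editing enzyme that shuts the signal off upstream.

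The promoters are shown because this loop runs through short DNA elements in front of the feedback genes. The sequences are those of RefSeq on the mouse build GRCm38.p6, which is not the build of the counts and held windows for 7 of the 10 genes and none for Nfkb1, Relb and Nfkbiz. In the 250 bases before each annotated start a kB-like motif was searched as GGGNNNTTCC, together with GGAANNNCCC, the same motif on the other strand. Matches of the 2 orientations may overlap, and they stand in capitals. A match was present in 8 of 10 windows and in 5 of the 7 genes, while 4.65% of the 32851 windows of all genes held one. The windows printed are those of the inhibitor genes Nfkbia and Nfkbie, of Tnfaip3 and Bcl3, and of the subunit genes Rel and Nfkb2 (first annotated start), each read 5′ to 3′ along the gene.
Nfkbia (chr12:55492648-55492897, minus strand): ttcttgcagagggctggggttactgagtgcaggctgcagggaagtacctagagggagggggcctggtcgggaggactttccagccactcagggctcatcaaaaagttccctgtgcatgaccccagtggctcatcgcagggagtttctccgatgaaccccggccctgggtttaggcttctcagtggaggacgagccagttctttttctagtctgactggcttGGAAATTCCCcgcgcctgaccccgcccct
Nfkbie (chr17:45555450-45555699, plus strand): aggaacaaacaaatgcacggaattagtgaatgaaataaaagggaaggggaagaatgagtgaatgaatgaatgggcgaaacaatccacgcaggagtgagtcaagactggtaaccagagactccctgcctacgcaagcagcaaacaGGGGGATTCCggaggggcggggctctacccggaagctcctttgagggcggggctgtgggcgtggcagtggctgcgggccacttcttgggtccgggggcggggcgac
Tnfaip3 (chr10:19015411-19015660, minus strand): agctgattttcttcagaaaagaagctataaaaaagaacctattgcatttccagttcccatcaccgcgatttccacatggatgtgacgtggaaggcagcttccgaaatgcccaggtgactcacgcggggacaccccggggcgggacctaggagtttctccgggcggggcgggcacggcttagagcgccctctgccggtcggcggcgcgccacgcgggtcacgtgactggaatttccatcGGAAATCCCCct
Bcl3 (chr7:19822756-19823005, minus strand): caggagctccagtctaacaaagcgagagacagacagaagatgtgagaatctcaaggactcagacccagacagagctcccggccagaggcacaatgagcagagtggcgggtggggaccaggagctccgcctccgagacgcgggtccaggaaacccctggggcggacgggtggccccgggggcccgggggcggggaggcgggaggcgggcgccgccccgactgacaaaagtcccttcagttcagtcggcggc
Rel (chr11:23770970-23771219, minus strand): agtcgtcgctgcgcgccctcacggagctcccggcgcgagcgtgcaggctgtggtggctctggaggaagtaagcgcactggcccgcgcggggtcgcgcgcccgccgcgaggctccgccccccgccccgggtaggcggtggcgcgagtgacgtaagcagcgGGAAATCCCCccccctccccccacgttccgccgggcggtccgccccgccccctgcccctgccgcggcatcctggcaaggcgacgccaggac
Nfkb2 (chr19:46304487-46304736, plus strand): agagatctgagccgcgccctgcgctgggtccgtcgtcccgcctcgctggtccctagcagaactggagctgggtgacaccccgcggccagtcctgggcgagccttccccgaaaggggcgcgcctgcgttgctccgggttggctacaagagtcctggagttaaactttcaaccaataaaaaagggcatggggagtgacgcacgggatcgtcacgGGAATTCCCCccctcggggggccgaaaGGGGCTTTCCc
The match of Nfkbia began 29 bases before the start, that of Nfkbie 106, that of Tnfaip3 12 and that of Rel 91 bases before it. Nfkb2 had matches 38 and 11 bases before its first start, and 1 in front of each of its 2 other starts. A second annotated start of Tnfaip3 had a match 90 bases before it. The Bcl3 and Rela windows held none. A match is a stretch of letters only, and binding was not measured.

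The libraries held from 36990033 to 46401368 estimated counts, and the lowest count of any of the 10 genes in a library was 510, so counting error was small against the spread between libraries. Levels are given as CPM, counts scaled to the TMM-adjusted size of their library. Csf1r, the gene of CD115, was at 374 to 525 CPM in intact spleen and 587 to 1192 CPM after resection, and at 209 to 467 and 601 to 719 CPM in blood, so that the resected libraries lay above the intact ones in both tissues. The sum of 10 monocyte markers was also higher after resection, at 3474 to 3901 against 2193 to 2437 CPM in spleen. In blood it was 4245 to 7116 against 1272 to 2848 CPM. Itgam had the highest level of these markers in blood after resection, at 2520 to 5038 against 475 to 797 CPM in intact animals. Whether the sum was higher without Itgam was not tested. Single markers were lower after resection. Cx3cr1 was at 5.26 to 11.2 against 17.4 to 53.7 CPM in blood and 3.05 to 4.83 against 11.2 to 31.3 CPM in spleen. Ace was also lower in both tissues, and Ccr2 was lower in spleen. Markers of other cells were present. The summed level of 12 neutrophil markers was 126 to 415 CPM in intact blood and 4084 to 20696 CPM in blood after resection, against 932 to 1957 and 5307 to 15442 CPM in spleen. That of 10 peritoneal macrophage markers was 4002 to 7554 CPM in intact blood and 19802 to 24931 CPM after resection, and Gata6, which defines those cells, was at 2.85 to 5.86 CPM and 17.7 to 23.7 CPM in these groups. Those of 10 red pulp macrophage markers were also higher after resection without overlap, at 3044 to 6645 against 1566 to 2422 CPM in spleen and 1925 to 2409 against 246 to 727 CPM in blood. Hmox1 and Cd5l were the highest of these in blood after resection, at 565 to 801 and 431 to 645 CPM. Spic and Vcam1 reached at most 6.42 and 4.78 CPM there, though both were higher than in intact blood. Axl was lower, at 6.502 to 10.95 against 18.9 to 44.3 CPM. In spleen Cd5l, Vcam1, Slc40a1 and Axl overlapped between the states, and the rest of the list was higher without overlap. The 10 B-cell markers were at 6162 to 6895 CPM in intact spleen and 1551 to 5244 CPM after resection, and the 10 T-cell markers at 1003 to 2842 CPM in intact blood, with the highest value in library 3, and 180.3 to 358 CPM after resection. No gene of these lists was at 0 in all libraries of a group. Haemoglobin genes took 13.2% to 33.1% of the counts in intact blood and 16.6% to 34.2% after resection, and at most 3.47% in spleen. The part of these cells in the results below was not tested.

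In blood after resection 6 of the 10 genes rose and 0 fell. They were the inhibitor genes Nfkbia and Nfkbie, the genes Nfkbiz and Bcl3 of nuclear relatives of the inhibitors, and the subunit genes Rela and Relb. All 6 passed at a Benjamini-Hochberg adjusted p under 0.05 in edgeR's quasi-likelihood test over all features. Of all features 21.1% passed in this comparison, 10.8% as higher and 10.3% as lower. The median log2 fold change was 1.28 over the 10 genes and -0.10 over all features tested, and all 10 values were positive. The levels by library are plotted for all 10 genes.

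**Figure D1:**
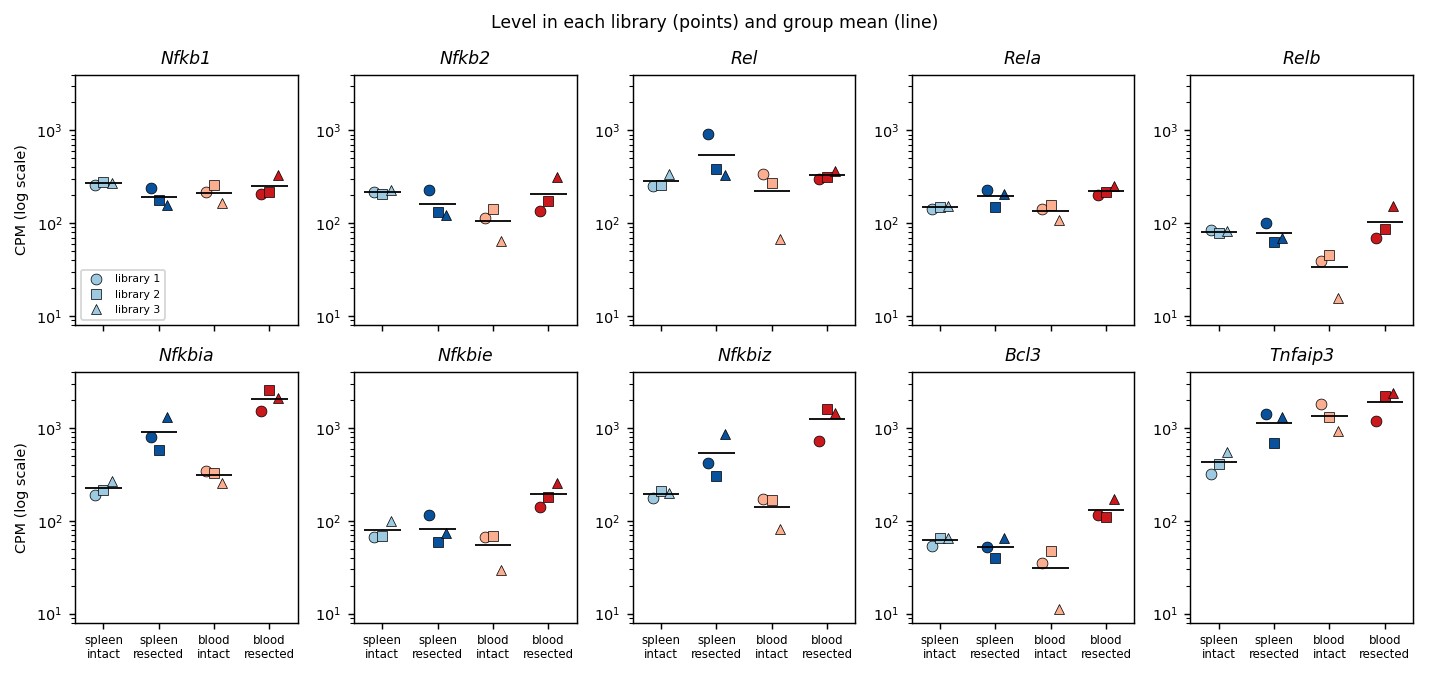
Level of each gene in the 12 libraries on a log axis in CPM, by tissue and state, with the 3 libraries of a group as circle, square and triangle and their mean as a line. Nfkbia in blood lies between 253 and 339.9 CPM in intact animals and between 1516 and 2532 CPM after resection.

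Nfkbia, which encodes IkB-alpha, stood at 339.9, 329.8 and 253 CPM in libraries 1 to 3 of intact blood and at 1516, 2532 and 2115 CPM after resection. Every resected library lay far above every intact one. The rise was 6.68-fold, on the log2 scale a difference of 2.74 (standard error 0.33, adjusted p = 0.00112). Nfkbiz, which encodes IkB-zeta, a nuclear cofactor of secondary response genes, was at 172, 167 and 80.7 CPM before and 715, 1587 and 1459 CPM after resection. Its groups did not overlap either, and its change was the largest of the 10 genes at 3.16 (standard error 0.47, adjusted p = 0.00241). Bcl3, which encodes a nuclear partner of the p50 and p52 subunits, was at 34.9, 47.6 and 11.1 CPM in intact blood and 115, 109.6 and 169.6 CPM after resection. The lowest intact value was that of library 3, as it was for all 10 genes in intact blood. On the log2 scale Bcl3 differed by 2.07 (standard error 0.44, adjusted p = 0.0104). Nfkbie, which encodes IkB-epsilon, went from 66.4, 68.6 and 29.7 CPM to 141, 179 and 256 CPM, with no overlap and a difference of 1.81 (standard error 0.38, adjusted p = 0.00980).

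Tnfaip3, the gene of A20, was already high in intact blood. It measured 1818, 1319.5 and 936 CPM in intact blood and 1202, 2201 and 2360.1 CPM after resection. The libraries of the states overlapped, and the log2 difference of 0.50 (standard error 0.37, adjusted p = 0.366) did not pass.

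Among the subunits Relb, the partner of p52 in the alternative pathway, went from 39.2, 45.9 and 15.6 CPM to 69.2, 87.7 and 152 CPM in blood. The groups did not overlap, and Relb differed by 1.62 (standard error 0.40, adjusted p = 0.0196). Rela, which encodes p65, the main activating subunit, was at 141, 155 and 108 CPM before and 202, 216 and 251 CPM after resection. Its rise was smaller, 1.65-fold, or 0.72 (standard error 0.19, adjusted p = 0.0234) on the log2 scale. Nfkb2 measured 115, 142 and 63.7 CPM and then 136, 172 and 312 CPM, which overlapped, and had 0.95 (standard error 0.38, adjusted p = 0.0974). Rel, which encodes c-Rel, was at 335, 271 and 68.2 CPM before and 303, 314 and 366 CPM after resection, with 0.54 (standard error 0.53, adjusted p = 0.498). Nfkb1 was at 217, 259.8 and 165 CPM and 204, 216 and 328 CPM, with 0.22 (standard error 0.24, adjusted p = 0.540). Neither Nfkb1 nor Rel nor Nfkb2 passed. In 6 of the 10 genes the states did not overlap, against 38.4% of all features. Of the 6 genes that rose, Nfkbia and Nfkbie held a match in the promoter windows above, Bcl3 and Rela held none, and Relb and Nfkbiz had no window. Of the genes that did not pass, Nfkb2, Rel and Tnfaip3 held a match, and Nfkb1 had no window.

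Resected blood library 3 had the highest level of 8 of the 10 genes in its group, all but Nfkbia and Nfkbiz, and also the highest neutrophil marker sum, 20696 CPM, whose part in the result was not tested. The calls of Rela and Relb in blood were lost without single libraries. Without resected blood library 3 the log2 fold change of Rela was 0.65 (adjusted p = 0.0871) and that of Relb 1.24 (adjusted p = 0.0846), without resected blood library 2 that of Rela was 0.75 (adjusted p = 0.0674), and in the fit of the 6 blood libraries alone Bcl3, Relb and Rela did not pass, with adjusted p-values of 0.0587, 0.0836 and 0.0714. With libraries 3 of both blood groups left out together, a choice made after the data were seen, 5 genes passed and Rela did not (0.49, adjusted p = 0.110), and the log2 fold change of Nfkb1 without resected blood library 3 was -0.0037.

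In spleen after resection 1 of the 10 genes rose, Nfkbia, and 0 fell. Of all features 2.05% passed in spleen, and 1.02% passed as higher. The median log2 fold change of the 10 genes was 0.23, against 0.050 over all features, with 6 values above 0 and 4 below. The splenic Nfkbia levels were 189, 213 and 269.8 CPM in intact libraries 1 to 3, and 795, 576 and 1322 CPM in the resected ones. All resected libraries were above all intact ones, by 4.01-fold in the fit, on the log2 scale a difference of 2.00 (standard error 0.32, adjusted p = 0.0253). This call was lost, with the direction kept, without intact splenic library 1 (1.89, adjusted p = 0.141) or 2 (1.97, adjusted p = 0.145), without resected splenic library 3 (1.62, adjusted p = 0.0697), without resected blood library 2 (1.99, adjusted p = 0.0503) and in the 6 splenic libraries alone (2.00, adjusted p = 0.0507).

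Nfkbiz and Tnfaip3 also had splenic libraries that did not overlap between the states. Nfkbiz was at 175, 208 and 197 CPM in intact spleen and 422, 306 and 864 CPM after resection, with 1.46 (standard error 0.44, adjusted p = 0.107). Tnfaip3 was at 318, 412 and 551 CPM and 1417, 696 and 1311 CPM, with 1.42 (standard error 0.38, adjusted p = 0.0803). Neither passed in edgeR, and both passed in DESeq2 on the same counts, with adjusted p-values of 0.0163 and 0.00523. DESeq2 called 3 of the 10 genes in spleen, and 13.9% of the features to which it gave an adjusted p. Tnfaip3 also passed without intact blood library 3, which belongs to the other tissue but enters the 12-library fit (1.42, adjusted p = 0.0444).

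Bcl3 and Nfkbie, which rose in blood, had splenic log2 fold changes near 0. Bcl3 was at 53.6, 65.5 and 64.8 CPM in intact spleen and 52.4, 39.7 and 65.1 CPM after resection, on the log2 scale a difference of -0.23 (standard error 0.42, adjusted p = 0.815). Nfkbie was at 67.1, 69.3 and 99.6 CPM and 115, 58.4 and 73.6 CPM, on the log2 scale a difference of 0.067 (standard error 0.37, adjusted p = 0.948). The states overlapped for both genes.

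None of the 5 subunit genes passed in spleen, and their values had both signs. Nfkb1 was at 255, 280.4 and 272 CPM in intact spleen and lower in each resected library, at 239.5, 176 and 158 CPM, with -0.49 (standard error 0.24, adjusted p = 0.269). Nfkb2 was at 218, 204 and 227 CPM and 227, 133 and 122 CPM, with -0.43 (standard error 0.37, adjusted p = 0.560). Rel stood out by its first resected library, at 913, 384 and 328 CPM against 249, 260.3 and 338 CPM in intact spleen, and had 0.94 (standard error 0.53, adjusted p = 0.348). Ccr7, a chemokine receptor gene of mature dendritic cells and lymphocytes, was also highest in that library, at 1403, 713 and 531 CPM after resection. The 9 other conventional dendritic cell markers summed to 144, 132 and 107 CPM after resection, again highest in that library. All 3 sums were below the 191 to 224 CPM of intact spleen. The sums of the B-cell markers, at 5244, 3875 and 1551 CPM, and of the T-cell markers, at 163, 100 and 124 CPM, were also highest in that library among the resected ones. Both were below the intact splenic sums, and their part was not tested. Rela was at 142, 151 and 154 CPM and 229, 149 and 207 CPM, with 0.39 (standard error 0.19, adjusted p = 0.272). Relb was at 84.0, 78.4 and 81.7 CPM and 101, 62.8 and 69.3 CPM, with -0.066 (standard error 0.39, adjusted p = 0.953). In 4 of the 10 genes the splenic states did not overlap, against 35.1% of all features.

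**Figure D2:**
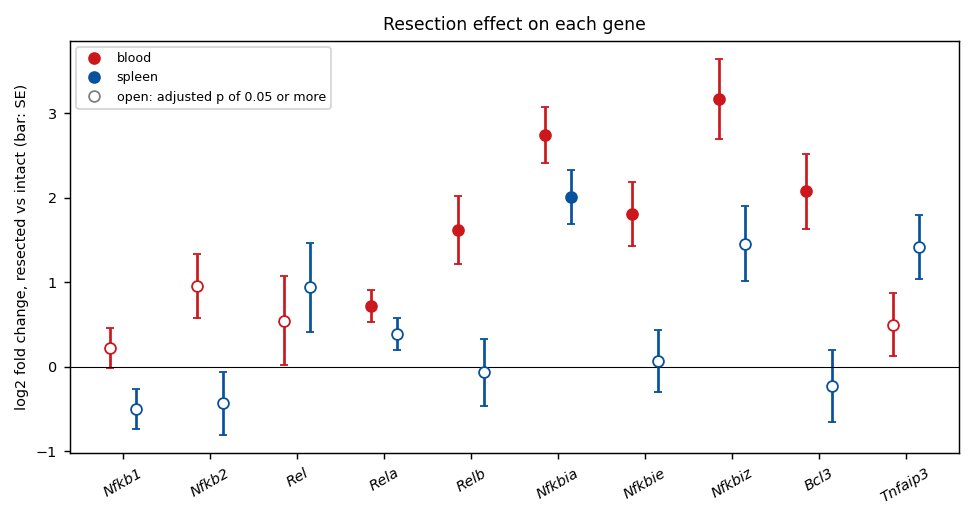
Log2 fold change of resected against intact for each gene, with its standard error as a bar, in blood (red) and spleen (blue). Filled points passed an adjusted p of 0.05, and Nfkbia is filled in both tissues, at 2.74 and 2.00.

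Whether the response differed between the tissues was tested as the difference of the resection effects. Of the 10 genes 0 passed in edgeR, where 0.283% of all features did, 5 had an unadjusted p under 0.05, against 17.3% of all features, and DESeq2 called 2, Bcl3 and Nfkbie, against 8.33% of the features to which it gave an adjusted p. The effect in blood minus that in spleen was 2.30 (standard error 0.61, adjusted p = 0.146) for Bcl3 on the log2 scale. For Nfkbie it was 1.74 (standard error 0.52, adjusted p = 0.173), for Nfkbiz 1.70 (standard error 0.62, adjusted p = 0.220) and for Relb 1.68 (standard error 0.56, adjusted p = 0.194). For Nfkb2 it was 1.38 (standard error 0.53, adjusted p = 0.234) and for Nfkb1 0.72 (standard error 0.34, adjusted p = 0.304). Nfkbia differed by 0.73 (standard error 0.44, adjusted p = 0.410), and Rela by 0.33 (standard error 0.27, adjusted p = 0.542). Rel and Tnfaip3 were the genes with the larger estimate in spleen, at -0.39 (standard error 0.74, adjusted p = 0.828) and -0.92 (standard error 0.53, adjusted p = 0.393). With standard errors of this size, a missed threshold does not show that the tissues responded alike.

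Between the tissues of intact animals 1 of the 10 genes passed, Tnfaip3, higher in blood, where 9.17% of all features passed and 4.51% as higher in blood. All 3 intact blood libraries, from 936 to 1818 CPM, stood above the splenic ones, from 318 to 551 CPM. Blood exceeded spleen by 1.67 (standard error 0.38, adjusted p = 0.0259) on the log2 scale. It did not pass without intact splenic library 1 (1.60, adjusted p = 0.0960) or 2 (1.75, adjusted p = 0.0844) or intact blood library 1 (1.45, adjusted p = 0.0766). The other genes ran from -1.28 for Relb to 0.46 for Nfkbia, and 8 of the 10 were lower in blood. Relb had -1.28 (standard error 0.40, adjusted p = 0.0746) and Nfkb2 -1.02 (standard error 0.38, adjusted p = 0.122), and for both the intact blood libraries all lay below the splenic ones. In 5 of the 10 genes the intact tissues did not overlap, against 34.5% of all features. DESeq2 called Relb as well, with an adjusted p of 0.0306, where it called 17.5% of features, and so did the fit without libraries 3 of both blood groups (-0.83, adjusted p = 0.0452). Rel and Rela changed sign without intact blood library 3, to 0.21 and 0.099.

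After resection 2 of the 10 genes passed between the tissues, Nfkbia and Nfkbie, both higher in blood, where 19.1% of all features passed and 8.54% as higher in blood. Nfkbia differed by 1.19 (standard error 0.31, adjusted p = 0.0258), with all blood libraries above all splenic ones. Nfkbie differed by 1.22 (standard error 0.37, adjusted p = 0.0461), also without overlap. Bcl3 was close to the limit, at 1.33 (standard error 0.43, adjusted p = 0.0567), and Nfkbiz had 1.24 (standard error 0.44, adjusted p = 0.0763). Tnfaip3, the gene that separated the intact tissues, had 0.75 (standard error 0.37, adjusted p = 0.186). Rela (0.19), Relb (0.40), Nfkb1 (0.38) and Nfkb2 (0.36) differed by less than 2 standard errors, as did Rel (-0.73), and none of these passed. In 3 of the 10 genes the tissues did not overlap after resection, against 42.4% of all features. DESeq2 called 4 of the 10, Nfkbiz and Bcl3 besides, and 25.9% of features. The 2 tissue comparisons and the 2 resection comparisons share their libraries, so their values are not independent of each other.

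Same-numbered libraries after resection deviated together, though the labels state no pairing. With the number as a block in a fit of these 6 libraries the calls changed. Nfkbia was then 1.30 (adjusted p = 0.0748), Nfkbie 1.30 (adjusted p = 0.0732) and Bcl3 1.39 (adjusted p = 0.0180), so that Bcl3 alone passed. The count of 2 fell to 0 without resected splenic library 2, resected blood library 2 or resected blood library 3, to 1 without intact splenic library 1 or 2, resected splenic library 1 or intact blood library 1, and rose to 4 without intact blood library 3.

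The order of the group means put blood after resection highest for 7 of the 10 genes. The exceptions were Nfkb1 and Nfkb2, highest in intact spleen, and Rel, highest in spleen after resection. For Nfkbia the order of the means was intact spleen, intact blood, spleen after resection and blood after resection, and the intact neighbours differed by 0.46 (standard error 0.31, adjusted p = 0.393). For Tnfaip3 intact spleen was lowest, and the 3 other groups had overlapping libraries. For Relb, Bcl3 and Nfkbie intact blood was lowest and the 2 splenic groups overlapped.

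Per kilobase of the longest annotated coding transcript, which allows a rough comparison of genes, Nfkbia and Tnfaip3 had higher mean levels than any subunit in every group. The annotation behind the counts is not given, so these levels depend on the transcript chosen, which for Rel has 7466 bases. In intact spleen Nfkbia was at 142 ± 26.4 and Tnfaip3 at 96.6 ± 26.5 CPM per kilobase (SD, n = 3), while the subunits had means from 36.8 for Relb to 65.4 for Nfkb1. In intact blood Tnfaip3 was above Nfkbia, at means of 307 against 195 CPM per kilobase. After resection Nfkbia was the highest of the 10 genes by mean in both tissues, at 1302 ± 324 CPM per kilobase in blood and 569 ± 243 in spleen. Nfkbiz reached 305 ± 115 CPM per kilobase in resected blood, against 434 ± 142 for Tnfaip3.

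The 5 subunits together summed to 242, 247 and 264 CPM per kilobase in intact spleen and to 369.7, 212 and 222 after resection. In blood they summed to 197, 214 and 113 CPM per kilobase in intact animals and 231, 258 and 371 after resection. The blood groups did not overlap, while the splenic ones did. Their shares do not depend on the scaling between libraries, but their size depends on the transcript lengths used. Relb made up 9.01%, 9.71% and 6.27% of the subunit transcripts in intact blood and 13.5%, 15.4% and 18.5% after resection, with no overlap. The share of Nfkb1 in blood was lower in every resected library, at 21.4%, 20.3% and 21.5% against 26.7%, 29.5% and 35.6%. In spleen the share of Nfkb1 was 25.6%, 27.6% and 25.0% in intact animals and 15.7%, 20.2% and 17.3% after resection, and that of Nfkb2 23.4%, 21.5% and 22.4% and 16.0%, 16.3% and 14.3%. Both shares were lower in every resected splenic library, beside higher shares of Rel, at 33.1%, 24.3% and 19.8% against 13.8%, 14.1% and 17.2%, and of Rela, at 22.8%, 25.8% and 34.4% against 21.5%, 22.5% and 21.4%. No test was made on shares, since the exact permutation test of 3 libraries against 3 cannot give a p below 0.10.

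**Figure D3:**
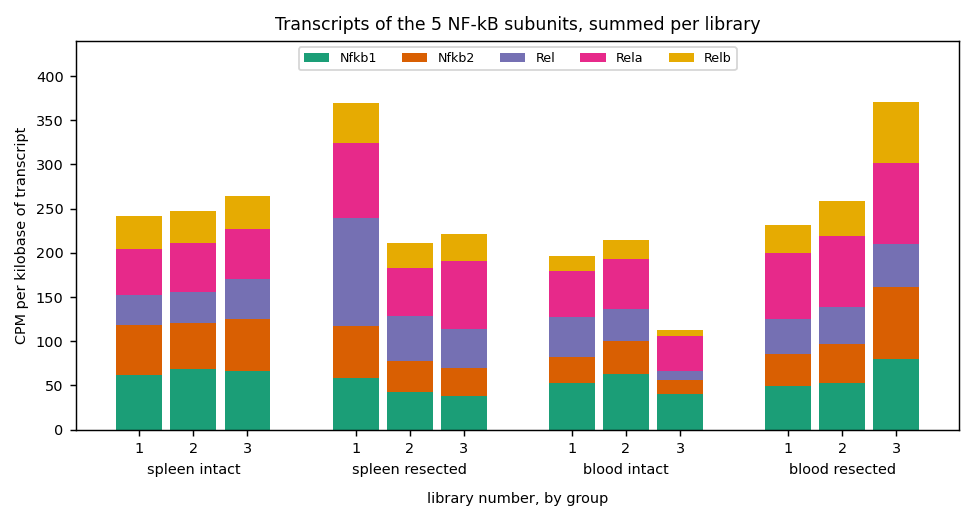
Transcripts of the 5 subunits in each library, in CPM per kilobase of the longest coding transcript, stacked, with the 3 libraries of each group side by side. Intact blood library 3 has the lowest sum, 113, and resected blood library 3 the highest, 371.

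Within each library the feedback genes were also set against Rela, as a log2 ratio of counts that is free of library scaling. The Nfkbia to Rela ratio was 1.27, 1.09 and 1.22 in intact blood and 2.91, 3.55 and 3.08 after resection. In spleen it was 0.41, 0.49 and 0.81 and 1.79, 1.96 and 2.68. In both tissues every resected library lay above every intact one, so the level of Nfkbia was higher relative to Rela as well. The Nfkbiz to Rela ratio was 0.29, 0.11 and -0.43 in intact blood and 1.82, 2.88 and 2.54 after resection. In spleen it was 0.30, 0.46 and 0.36 in intact animals and 0.88, 1.04 and 2.06 after resection, again without overlap. The ratios were not tested.

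For Bcl3 the libraries did not overlap between the states in either tissue, with opposite signs. It was -2.01, -1.71 and -3.28 in intact blood and -0.81, -0.98 and -0.56 after resection, all higher. In spleen it was -1.40, -1.20 and -1.25 in intact animals and -2.13, -1.90 and -1.67 after resection, all lower. The splenic levels of Bcl3 itself overlapped, with a log2 fold change of -0.23, and Rela, the denominator, had 0.39, and neither passed. The Tnfaip3 to Rela ratio was higher after resection in every splenic library, at 2.63, 2.23 and 2.66 against 1.17, 1.45 and 1.84, and overlapped in blood, at 2.57, 3.35 and 3.23 against 3.69, 3.09 and 3.11. Between the 2 cytoplasmic inhibitors the Nfkbie to Nfkbia ratio was lower in every resected splenic library, at -2.79, -3.30 and -4.17 against -1.49, -1.62 and -1.44. In blood it was -3.43, -3.82 and -3.05 against -2.36, -2.27 and -3.09, which overlapped. The Nfkb2 to Nfkb1 ratio of the precursor genes was higher in every resected blood library, at -0.58, -0.33 and -0.072 against -0.91, -0.88 and -1.37, and overlapped in spleen.

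**Figure D4:**
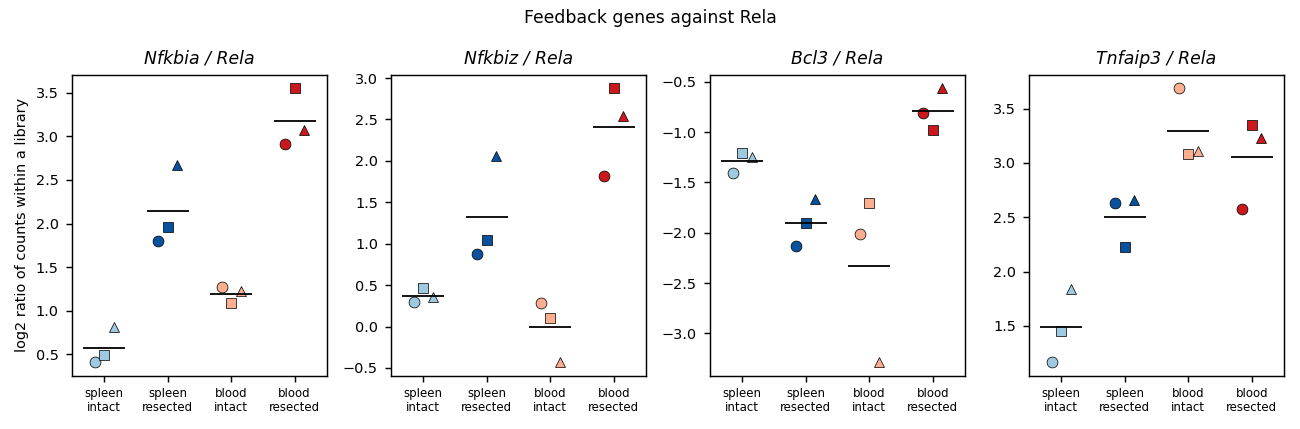
Log2 ratio of the counts of Nfkbia, Nfkbiz, Bcl3 and Tnfaip3 to those of Rela in each library, by tissue and state, with group means as lines and a separate axis range for each panel. The Bcl3 to Rela ratio is higher after resection in blood and lower in spleen.

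The rest of the pathway was followed in 3 lists, which were chosen with earlier results of these data known. Of 28 genes that carry the signal to NF-kB (adaptors, kinases and ubiquitin ligases), 6 rose in blood (21.4%, where 21.1% of all features passed and 10.8% rose) and 0 fell, with a median log2 fold change of 0.086 against -0.10 over all features. The 3 with the smallest p were Myd88, the adaptor of Toll-like and interleukin-1 receptors, at 1.82 (standard error 0.38, adjusted p = 0.00974), the kinase gene Irak2 at 1.99 (standard error 0.43, adjusted p = 0.0108) and Ripk1, which encodes a kinase of the TNF receptor complex, at 0.84 (standard error 0.21, adjusted p = 0.0198). In spleen 0 of the 28 passed in edgeR, against 2.05% of all features, and 5 had an unadjusted p under 0.05 (17.9%, against 20.8%). DESeq2 called 1, against 13.9% of the features to which it gave an adjusted p. The splenic median was -0.042. The smallest p belonged to Rnf31, Tab3 and Tab1, at -0.71 (standard error 0.19, adjusted p = 0.0795), 0.51 (standard error 0.18, adjusted p = 0.150) and 0.69 (standard error 0.25, adjusted p = 0.153). The blood count was 3 without resected blood library 2 or intact blood library 2 and 2 without resected blood library 3, where Ripk1 did not pass, and the splenic count was 3 without intact blood library 3.

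Of 18 other negative regulators 8 rose in blood (44.4%, against 10.8% of all features) and 0 fell, with a median of 0.75. Nfkbib, which encodes the inhibitor IkB-beta, had 2.08 (standard error 0.23, adjusted p = 0.000841), from 26.6 to 40.5 CPM in intact blood and from 107 to 166 CPM after resection. Tnip2, which encodes a binding partner of A20, had 1.11 (standard error 0.23, adjusted p = 0.00898), and Nfkbid, a further nuclear IkB gene, 1.91 (standard error 0.45, adjusted p = 0.0155). In spleen 0 of the 18 passed in edgeR, against 2.05% of all features, and 2 had an unadjusted p under 0.05 (11.1%, against 20.8%). DESeq2 called 0, against 13.9% of the features to which it gave an adjusted p. The smallest p there belonged to Nfkbib, Zc3h12a and Rnf11, at 0.64 (standard error 0.23, adjusted p = 0.147), 1.03 (standard error 0.46, adjusted p = 0.238) and 0.53 (standard error 0.30, adjusted p = 0.344). The blood count was 4 without resected blood library 2 or 3 and 5 without intact blood library 1, it was 12 without intact blood library 3, and Nfkbid did not pass without resected blood library 2.

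Of 32 genes known as NF-kB targets 25 rose in blood (78.1%, against 10.8% of all features) and 0 fell. The median log2 fold change was 3.69, the same with Nos2, which was at or under the floor of 3 counts in intact blood, set to its bound. The smallest p belonged to the chemokine gene Cxcl1 at 6.34 (standard error 0.55, adjusted p = 0.000428), the cytokine gene Il1a at 8.80 (standard error 0.89, adjusted p = 0.000623) and the early response gene Ier3 at 4.39 (standard error 0.46, adjusted p = 0.000670). Il1a was at 2.21 to 3.98 CPM in intact blood and 777 to 1860.4 CPM after resection. The list was chosen with earlier results of these data known, so its shares are a description and not a test. In spleen 9 of the 32 rose (28.1%, against 1.02% of all features) and 0 fell, with a median of 0.55. Cxcl1 had 5.36 (standard error 0.55, adjusted p = 0.0128), Cxcl2 3.89 (standard error 0.53, adjusted p = 0.0183) and Cxcl3 6.16 (standard error 1.16, adjusted p = 0.0366), and Cxcl1 was at 0.358 to 0.668 CPM in intact spleen and 11.5 to 27.3 CPM after resection. All 3 chemokine calls were lost without intact splenic library 1 or 2, and that of Cxcl3 also without intact splenic library 3 or library 1 or 2 of either blood group. The splenic count was 0 without intact splenic library 1 or 2, 2 without intact splenic library 3, intact blood library 1 or 2 or resected blood library 1 or 2, 3 without resected splenic library 3, 4 without resected blood library 3 and 5 without resected splenic library 1 or 2. It rose to 11 without intact blood library 3. The neutrophil markers named above moved with the same comparisons, and several of these targets are also made by neutrophils, whose part in the result was not tested.

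**Figure D5:**
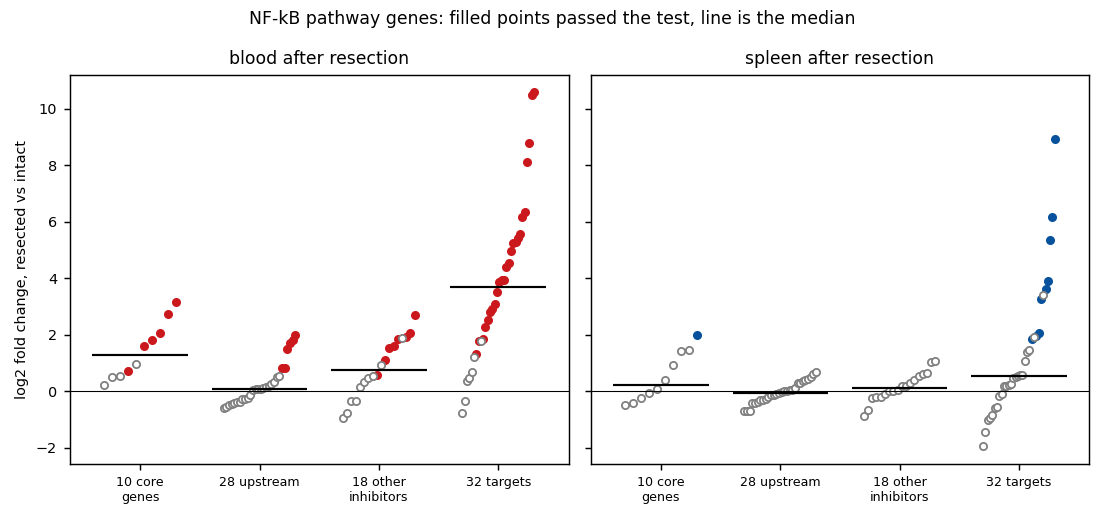
Log2 fold change of resected against intact for the 10 core genes and the genes of the 3 lists, in blood (left) and spleen (right), 1 point a gene, filled where the adjusted p was under 0.05, with the median as a line. The median of the 32 targets is 3.69 in blood and 0.55 in spleen.

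Likeness between genes was measured as the root mean square difference of log2 CPM over the 12 libraries, each profile centred on its own mean. Among the 10 genes the closest pair was Nfkb2 and Relb (0.33), followed by Nfkb1 and Nfkb2 (0.37), Nfkbie and Bcl3 (0.37), Nfkb1 and Rela (0.40) and Nfkbia and Nfkbiz (0.42). The most distant pair was Nfkb1 and Nfkbia (1.36). Among 12559 other genes the nearest profile was that of Itgav (0.14) for Nfkb1, Gpd2 (0.24) for Nfkb2, Smpd5 (0.25) for Rel, Atg2a (0.11) for Rela and Rhbdf2 (0.20) for Relb. For the regulators it was Ninj1 (0.30) for Nfkbia, Ripk2 (0.25) for Nfkbie, Ehd1 (0.25) for Nfkbiz, Ncf4 (0.28) for Bcl3 and 8030431J09Rik (0.35) for Tnfaip3. The difference to the median gene ran from 0.58 for Nfkb1 to 1.43 for Nfkbiz. Ripk2, nearest to Nfkbie, encodes a kinase that links NOD receptors to NF-kB, and it was at 9.76 to 26.8 CPM in intact blood and 50.9 to 57.9 CPM after resection. Profiles of this kind share the libraries and their mix of cells.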

How the data were processed

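RNA-seq was done on CD115+ cells of blood and spleen, in 4 groups of 3 libraries. The authors deposited estimated counts of reads per entry, not scaled to depth or length. The submitters' processing notes name STAR and the build GRCm39, and the counting tool and annotation are not given in the sources used here. Unassigned transcripts, 1.75% to 4.33% of a library, were left out. RefSeq accessions were summed into gene symbols where they matched (25340 of 40274; the 10 genes had none), and counts were rounded to whole numbers. How reads of overlapping genes were divided is not stated.

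Features passing filterByExpr were scaled with TMM (factors 0.661 to 1.26) and fitted with edgeR 4.0.16 in R 4.3.3 (robust glmQLFit, glmQLFTest) over all 12 libraries without covariates. A gene passed at a Benjamini-Hochberg adjusted p under 0.05 over all features. The standard error was the absolute log2 fold change divided by the square root of F. DESeq2 1.42.0 and the other alternatives are given in the closing section. Levels per kilobase used transcript lengths of GENCODE M21. Replicate libraries differed beyond sampling noise (chi-square over its degrees of freedom 20.2 to 599), and nothing but the pooling of animals says that they were separate experiments, so p-values measure the spread between these libraries. Same-numbered blood and splenic libraries after resection deviated together from their group means (correlations 0.33 to 0.57 over 5000 features). Same-numbered libraries of other group pairs gave -0.40 to 0.12. Differently numbered libraries could be as close, such as resected splenic library 2 and resected blood library 1 at 0.45. Intact splenic library 2 and resected splenic library 3 gave 0.36. The labels state no pairing, so the block after resection rests on an assumed one.

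The 10 genes were named in full. From each pathway list the 3 genes with the smallest p in each resection comparison, at 1 CPM or more in the higher group, were named, and for each of the 10 genes its nearest profile at a mean of 1 CPM or more. The genes and lists were chosen with earlier results of these data known. Markers of other cell types were summed per library.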

Additional observations from a re-analysis of the deposited data

How the results depend on the processing

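Among 1050 refits of single genes, each in 1 comparison, 13 changed the sign of a log2 fold change, none of a change that had passed. In 32 of them a call was lost with the sign kept, and in 21 a call was gained. With 1 library left out in turn the number of the 10 genes that passed ran from 4 to 6 in blood after resection, 0 to 2 in spleen, 0 to 1 between the intact tissues and 0 to 4 between the tissues after resection, and was 0 throughout for the difference of the effects. In fits of the compared groups alone it was 3 in blood and 0 in spleen, where fewer libraries estimate the spread. DESeq2 called 3 in spleen, 2 for the difference, 2 between the intact tissues and 4 after resection, and the fit without low-count filter called 1 after resection. The causes were not tested. With libraries 3 of both blood groups left out it was 2 in spleen and 2 between the intact tissues.

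With the replicate number as a block over all 12 libraries, 0 passed between the intact tissues (Tnfaip3 at 1.70, adjusted p = 0.0516), and 1 after resection. Same-numbered libraries of the intact tissues did not deviate together. The block on the 6 libraries after resection left 1, and no other call of the 10 genes in the 5 comparisons changed under a block.

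The values that changed sign with 1 library left out ran from -0.0037 to 0.40 for Nfkb1 in blood, from -0.30 to 0.067 for Relb and -0.25 to 0.27 for Nfkbie in spleen, from -0.83 to 0.20 for Rel in the difference of the effects, and from -0.66 to 0.21 for Rel and -0.19 to 0.099 for Rela between the intact tissues. Without libraries 3 of both blood groups Nfkb1 in blood was -0.19, and between the intact tissues Rel was 0.21 and Rela 0.10. Scaling with RLE factors moved the median of all features between the tissues after resection from -0.14 to -0.027, and leaving out haemoglobin genes to -0.016, with Bcl3 then passing at 1.44 (adjusted p = 0.0486) and 1.44 (adjusted p = 0.0450). In the lists, fits of the compared groups alone gave 1 upstream genes and 1 other inhibitors in blood and 2 targets in spleen, no low-count filter gave 5 other inhibitors in blood and 2 targets in spleen, and the replicate block 5 and 4. With 3 libraries a group, the spread between libraries sets the precision for the 10 genes and not the depth.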
